A study of Homo sapiens with 6 samples.

Results

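The genes described here encode the proteins that sense protein-folding and translation stress in human cells, together with the factors that carry the signal of those sensors. They are 10 genes, chosen by name: the 4 kinases that phosphorylate the translation initiation factor eIF2α (EIF2AK1, EIF2AK2, EIF2AK3 and EIF2AK4), the endoplasmic reticulum (ER) sensor ERN1 with its substrate XBP1, the ER sensors ATF6 and ATF6B, and the proteases MBTPS1 and MBTPS2 that release the latter pair. All 10 were found among the 53826 entries of each expression table, each as a single entry, and 9 of the 10 lay above the lowest value of the tables in all 6 libraries. The exception was ERN1.

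RNA-seq was performed on PK-1 and Panc-1, established cell lines of human pancreatic ductal adenocarcinoma (PDAC), to ask what blocking the retinoic acid receptor RARγ does to the transcriptome. Each line was sequenced as a library labelled control and after 24 h of exposure to RARγi-1 (LY2955303) and, separately, RARγi-2 (MM11253), compounds that the study describes as RARγ antagonists of different structure. This gave the groups PK-1 control, PK-1 with RARγi-1, PK-1 with RARγi-2, Panc-1 control, Panc-1 with RARγi-1 and Panc-1 with RARγi-2, with 1 library each. No replicate exists for any of them, so no p-value is given. The doses in the RNA-seq and the vehicle of the controls are not stated, which is why the responses to the inhibitors are set side by side, and both inhibitors of a line share its 1 control library. A treatment entry of both RARγi-2 libraries reads RARγi-1, and libraries were assigned by their titles.

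The ER lumen is where secreted and membrane proteins fold, and unfolded protein there activates PERK (the product of EIF2AK3), IRE1α (ERN1) and ATF6. PERK phosphorylates eIF2α, which lowers general translation and favours that of ATF4, whereas IRE1α cuts XBP1 mRNA so that it encodes an active transcription factor, and ATF6 moves to the Golgi apparatus, where the proteases S1P (MBTPS1) and S2P (MBTPS2) free its transcription factor domain. The other eIF2α kinases answer to other signals: HRI (EIF2AK1) to heme shortage and mitochondrial stress, PKR (EIF2AK2) to double-stranded RNA, and GCN2 (EIF2AK4) to amino acid shortage. All of this activation takes place on the proteins, so a transcript level measures how much sensor mRNA is present and not how active the sensor is.

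The mRNA of XBP1 carries the sequence on which IRE1α acts, and it is shown because the tables cannot separate its uncut from its cut form. In the transcript XBP1-201 (GENCODE 29, 1850 bases) the segment that is removed spans bases 567 to 592, in exon 4 of 5, at chr22:28796127-28796152 on the minus strand of hg38. It is printed 5′ to 3′ with 20 bases on each side (chr22:28796107-28796172), the 26 removed bases in capitals.
XBP1 segment: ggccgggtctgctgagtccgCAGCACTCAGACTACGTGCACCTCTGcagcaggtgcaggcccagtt
With the segment the reading frame that opens at base 74 holds 261 codons, and without it 376. The segment was present in 4 of the 7 annotated transcripts of the gene. The deposited value of XBP1 sums whatever forms were counted, so it gives the amount of XBP1 mRNA and says nothing of its splicing.

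Promoter windows of 250 bases before to 50 bases after the start of transcription (RefSeq, GRCh38.p14) were available for 9 of the 10 genes, EIF2AK1 being without one. They were searched on both strands for short elements known from these pathways. The ER stress response element (ERSE, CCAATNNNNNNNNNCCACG), the element through which ATF6 with NF-Y and also XBP1 act, was held by 0.0769% of 35116 windows and, among the 9 genes, by XBP1 alone. The interferon-stimulated response element (ISRE, GAAANNGAAA), to which interferon-activated factors bind, was held by 3.57% of windows and here by EIF2AK2 alone. The XBP1 promoter (chr22:28800598-28800819, minus strand, ending at base -29 from the RefSeq start) is printed with the ERSE in capitals, at bases -52 to -34 from the start. The EIF2AK2 stretch (chr2:37156967-37156996, minus strand, 16 bases before to 14 after the start) is printed with the ISRE in capitals, at bases -6 to 4.
XBP1 promoter: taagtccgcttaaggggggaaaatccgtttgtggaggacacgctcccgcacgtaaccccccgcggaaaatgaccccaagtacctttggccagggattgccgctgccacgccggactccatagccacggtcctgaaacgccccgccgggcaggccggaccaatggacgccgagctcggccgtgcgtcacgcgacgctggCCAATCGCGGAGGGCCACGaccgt
EIF2AK2 promoter: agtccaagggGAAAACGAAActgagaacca
XBP1 also had a window at another start, and that window held no ERSE.

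The windows of EIF2AK3 and ERN1 held no ERSE. EIF2AK3 held 4 CCAAT boxes (CCAAT on either strand, the first part of the ERSE and the binding site of NF-Y) and ERN1 held 1, and a CCAAT box was found in 34.6% of all windows and in 5 of the 9 genes. The second ERSE part on its own (CCACG, which overlaps the ERSE) was found in 38.1% of windows and in 5 of the 9. None of the 9 held the element ERSE-II (ATTGGNCCACG, 0.0541% of windows), the UPRE bound by XBP1 and ATF6 (TGACGTGG, 0.729%) or the CARE bound by ATF4 and C/EBP factors (TGATGNAA, 3.62%). These matches describe letters in the windows and do not show binding in these cells.

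The level of each gene was read as TPM (a relative abundance scaled for transcript length and to a common total per library), in tables where everything under 1 TPM had been raised to 1 TPM, the floor. A change was taken as the log2 ratio of TPM + 1 in a treated library to TPM + 1 in the control library of its line, and "past 2-fold" stands for a log2 fold change of at least 1 in size. In place of a replicate error, a fold change spread was taken from the differences between the RARγi-2 and RARγi-1 libraries of a line over the 500 entries nearest in level. At the levels of these genes it came to 0.33 to 0.47 on the log2 scale in PK-1 cells and 0.26 to 0.37 in Panc-1. This spread holds real differences between the inhibitors and leaves out whatever both treated libraries share, so it is a yardstick and not a replicate error. It compares the same entry in different libraries, so between different genes of a library, or between the lines, it is a rough guide only.

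Transcripts of EIF2AK3, ERN1, ATF6 and XBP1 were higher in every treated library than in the control of its line, whereas EIF2AK1 and MBTPS1 stayed within the spread throughout. EIF2AK3 and XBP1 rose past 2-fold in all 4 comparisons, by log2 fold changes of 1.52 to 2.17 and of 1.5 to 2.14. ERN1 rose past 2-fold in 3 of the 4 comparisons and ATF6 in 2 of the 4. EIF2AK4 was the single gene to fall past 2-fold, and it did so in PK-1 with RARγi-2. RNA was taken from whole cultures, so a change in every cell and a change in the share of cells that hold a transcript cannot be told apart.

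With RARγi-1 in PK-1, 3 of the 10 genes rose and 0 fell past 2-fold, beside 9.05% rising and 4.85% falling of all entries above the floor in any library of that line. With RARγi-2 in PK-1, 3 rose and 1 fell, beside 11.9% and 12.3% of all entries. In Panc-1, 4 rose and 0 fell with RARγi-1 (all entries: 7.3% and 5.96%), and 3 rose and 0 fell with RARγi-2 (all entries: 8.34% and 11%). The 4 include ERN1, whose Panc-1 control lay at the floor, so that it was counted through its treated libraries alone and could only rise. With at least 5 TPM required in a library of the line, 3 rose with RARγi-1 in Panc-1. Over all 4 comparisons 2 genes rose and 0 fell, beside 2.63% and 2.13% of the 12799 entries above the floor in both lines. The median log2 fold change of the 10 genes was 0.35, 0.28, 0.47 and 0.22 in the 4 comparisons in this order, beside medians of 0.13, 0.01, 0.08 and -0.01 over all entries. The median thus spans genes past 2-fold, genes within the spread and genes between these, such as ATF6B in PK-1 and EIF2AK2 in Panc-1. It describes none of these kinds well. The shares of all entries given here are also the background for the counts of the gene lists below.

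**Figure D1:**
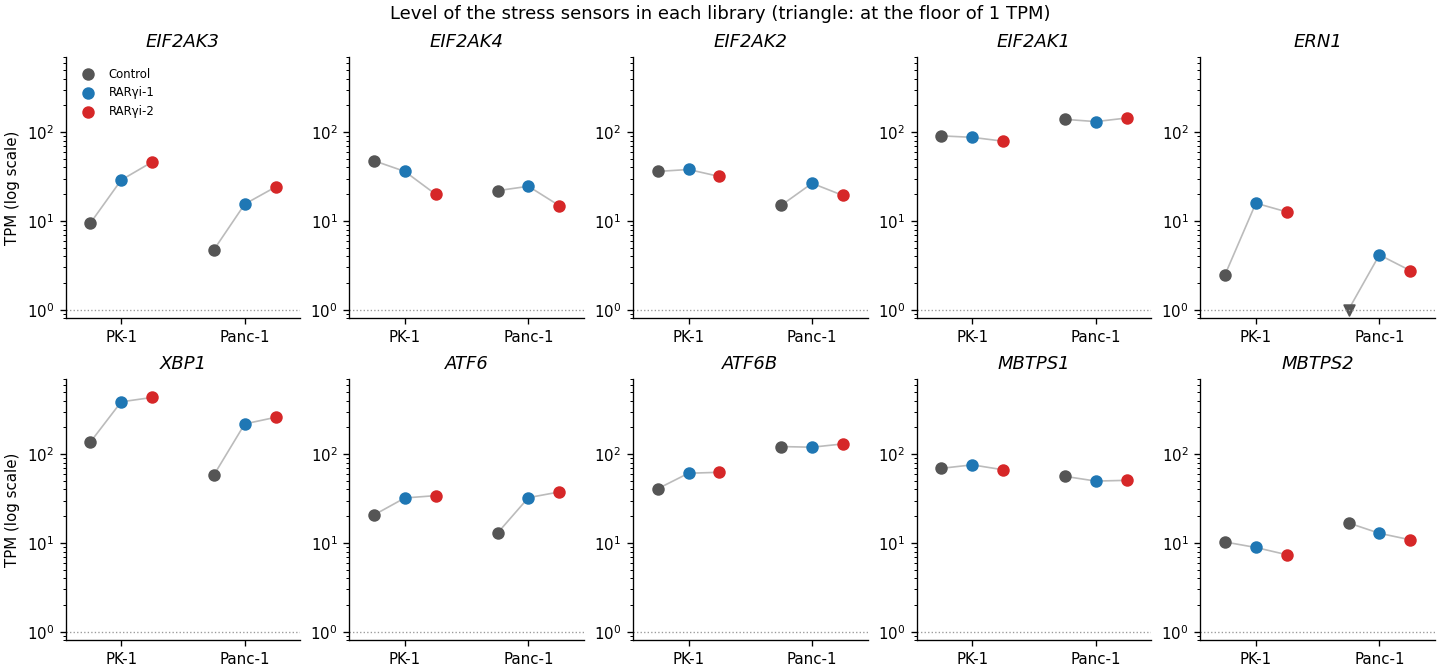
TPM (log axis) of the 10 genes in the 6 libraries, 1 panel per gene and 1 point per library, grey for the control, blue for RARγi-1 and red for RARγi-2; the triangle marks ERN1 at the floor of 1 TPM in the Panc-1 control. EIF2AK3, ERN1, XBP1 and ATF6 sit higher in all treated libraries of both lines, for example EIF2AK3 at 28.8 and 46.0 TPM over 9.42 TPM in PK-1, whereas EIF2AK1 and MBTPS1 are nearly level within each line.

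EIF2AK3 (Entrez 9451; chr2:88556741-88628145, here and for the other genes from RefSeq on GRCh38.p14) encodes PERK. The start behind its promoter window lies inside this range and not at its upper end. In PK-1 its level was 9.42 TPM in the control, 28.8 TPM under RARγi-1 and 46.0 TPM with RARγi-2. In Panc-1 the levels were 4.72, 15.5 and 24.1 TPM in the same order. The control was the lowest library and RARγi-2 the highest in each line, and every treated library of either line lay above both controls. The TPM ratios to the control were 3.06 and 4.88 in PK-1 cells and 3.27 and 5.10 in Panc-1, and the log2 fold changes 1.52, 2.17, 1.52 and 2.13. Each exceeded the spread at this level. Ranked from the largest rise, EIF2AK3 came 429th and 283rd of 14269 entries in PK-1 cells and 331st and 163rd of 14184 in Panc-1. The RARγi-2 library exceeded the RARγi-1 library by 0.65 on the log2 scale in PK-1 cells and by 0.61 in Panc-1, in both lines more than the spread.

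EIF2AK4 (Entrez 440275; chr15:39934115-40035591) encodes GCN2. Its level in PK-1 was 47.6 TPM in the control, 36 TPM under RARγi-1 and 19.9 TPM with RARγi-2, so it was lower in both treated libraries. In Panc-1 it was 21.9, 24.5 and 14.8 TPM, with only the RARγi-2 library clearly below the control. Its log2 fold changes came to -0.39 and -1.22 in PK-1 cells and 0.16 and -0.53 in Panc-1. Of these, -1.22 was past 2-fold, and 0.16 lay within the spread. The RARγi-2 library lay below the RARγi-1 library by more than the spread in both lines, with log2 differences of -0.83 and -0.69.

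EIF2AK2 (Entrez 5610; chr2:37099210-37156980) encodes PKR. It stood at 36, 37.9 and 31.6 TPM in the control, RARγi-1 and RARγi-2 libraries of PK-1 and at 15, 26.5 and 19.3 TPM in those of Panc-1. The PK-1 libraries were thus close to each other, and in Panc-1 both treated libraries were above the control. The log2 fold changes of 0.07 and -0.18 in PK-1 lay within the spread. Those of 0.79 and 0.35 in Panc-1 exceeded it without reaching 2-fold.

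EIF2AK1 (Entrez 27102; chr7:6022247-6059175) encodes HRI and was the most abundant eIF2α kinase transcript in all 6 libraries. Its level was 90.6, 87.3 and 79.0 TPM in PK-1 cells and 139, 131 and 144 TPM in Panc-1. No treated library departed from its control by more than the spread, with log2 fold changes between -0.20 and 0.05.

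The summed TPM of the 4 kinases moved little, from 183.7 TPM in the PK-1 control to 190.1 and 176 TPM with the inhibitors and from 181 TPM in the Panc-1 control to 198 and 202 TPM. Its make-up did change. EIF2AK3 made up 5.13% of the sum in the PK-1 control, 15.2% with RARγi-1 and 26.1% with RARγi-2, and in Panc-1 2.61%, 7.82% and 11.9%. EIF2AK4 made up 25.9%, 19.0% and 11.3% in PK-1 cells and 12.1%, 12.4% and 7.34% in Panc-1. The GCN2 transcript was therefore more abundant than the PERK transcript in both controls and less abundant in both RARγi-2 libraries. With RARγi-1 it was the more abundant in Panc-1, and in PK-1 the pair lay within the overall spread of 0.41. The TPM ratio of EIF2AK3 to EIF2AK4 was 0.198, 0.80 and 2.31 in PK-1 cells and 0.216, 0.630 and 1.62 in Panc-1.

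**Figure D2:**
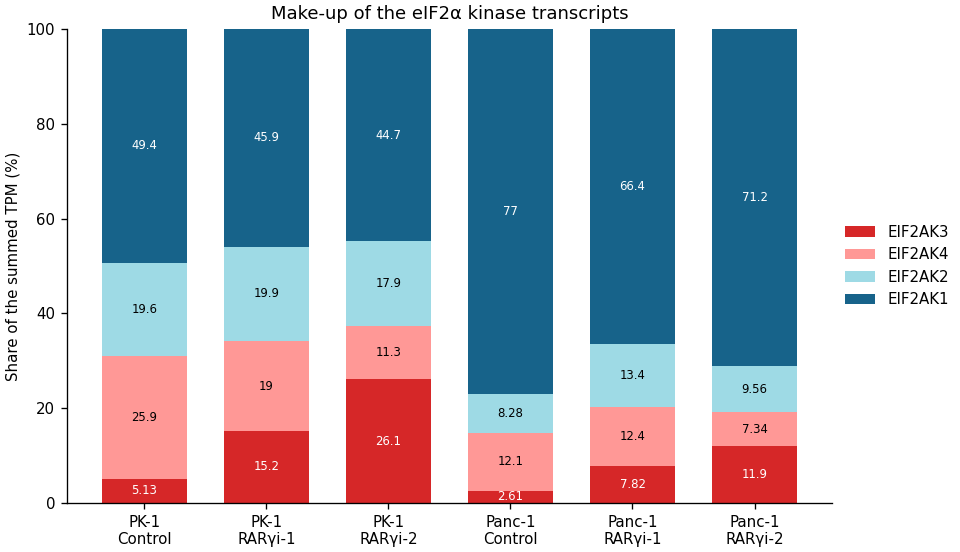
Share (%, y axis from 0) that each of the 4 eIF2α kinase transcripts took of their summed TPM, 1 stacked bar per library with the share printed in each segment. The EIF2AK3 segment at the bottom widens from 5.13% to 26.1% across the PK-1 libraries and from 2.61% to 11.9% across the Panc-1 libraries, whereas EIF2AK1 remains the widest segment throughout, at 44.7% to 77%.

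ERN1 (Entrez 2081; chr17:64039142-64130144) encodes IRE1α and was the least abundant of the 10 in both controls. In PK-1 it was at 2.46 TPM in the control, 15.8 TPM under RARγi-1 and 12.6 TPM with RARγi-2. In Panc-1 the control was at the floor of 1 TPM, and the treated libraries were at 4.15 and 2.76 TPM. Both treated libraries were above the control in each line, and the RARγi-1 library was the higher of the pair. Its log2 fold changes came to 2.28 and 1.98 in PK-1, where ERN1 ranked 113th and 374th among all entries. In Panc-1 they were 1.36 and 0.91, which are lower limits because the control lay at the floor. Without the pseudocount of 1, which compresses changes at such levels, these limits became 2.05 and 1.46, so that ERN1 too was past 2-fold in all 4 comparisons. The share of all entries past 2-fold without a pseudocount is not given here. In Panc-1 these calls set single libraries of low level against a control at the floor.

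XBP1 (Entrez 7494; chr22:28794560-28800569) encodes the transcription factor whose mRNA IRE1α cuts. Its level was 136, 387 and 434 TPM in the control, RARγi-1 and RARγi-2 libraries of PK-1 and 58.0, 219 and 259 TPM in those of Panc-1. Both treated libraries of each line stood well above its control, and XBP1 was the most abundant of the 10 transcripts in all 4 treated libraries. It already was so in the PK-1 control, whereas EIF2AK1 and ATF6B were higher in the Panc-1 control. The TPM ratios were 2.85 and 3.19 in PK-1 cells and 3.77 and 4.47 in Panc-1, and the log2 fold changes 1.5, 1.67, 1.90 and 2.14. The RARγi-2 and RARγi-1 libraries of a line differed by less than the spread. XBP1 was the gene with the ERSE in the promoter printed above.

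ATF6 (Entrez 22926; chr1:161766320-161964070) encodes the sensor that is itself a transcription factor precursor. It measured 20.6, 32.1 and 34.1 TPM in PK-1 cells and 12.9, 32.3 and 37.5 TPM in Panc-1. The treated libraries of both lines reached similar levels, from controls that differed by 0.64 on the log2 scale. Its log2 fold changes came to 0.61 and 0.70 in PK-1, past the spread but not past 2-fold, and 1.26 and 1.47 in Panc-1, past 2-fold.

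ATF6B (Entrez 1388; chr6:32115264-32128246) encodes the close relative of ATF6. Its level was 40.7, 60.8 and 62.4 TPM in PK-1 cells and 121, 119 and 130.1 TPM in Panc-1. In PK-1 both treated libraries were above the control, with log2 fold changes of 0.57 and 0.60 that resembled those of ATF6, and in Panc-1 the changes of -0.02 and 0.10 lay within the spread. The ATF6B to ATF6 ratio of TPM was accordingly 1.97, 1.90 and 1.83 in PK-1 cells and fell in Panc-1 from 9.41 in the control to 3.70 and 3.47. Whether the lines differed in the response of either gene could not be tested with 1 library per condition.

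MBTPS1 (Entrez 8720; chr16:84053763-84116942) encodes S1P, which makes the first cut in ATF6. Its level was 69.1, 75.6 and 66.6 TPM in PK-1 cells and 56.2, 49.7 and 50.6 TPM in Panc-1, and all 4 log2 fold changes, from -0.17 to 0.13, lay within the spread. MBTPS2 (Entrez 51360; chrX:21839617-21885423) encodes S2P, which makes the following cut inside the membrane. It was at 10.2, 8.88 and 7.36 TPM in PK-1 cells and at 16.8, 12.8 and 10.8 TPM in Panc-1, lower in all 4 treated libraries than in the control. Its log2 fold changes came to -0.19, -0.43, -0.36 and -0.59, of which 2 exceeded the spread and 0 were past 2-fold. The proteases were thus not raised at the transcript level in the libraries in which ATF6 was.

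**Figure D3:**
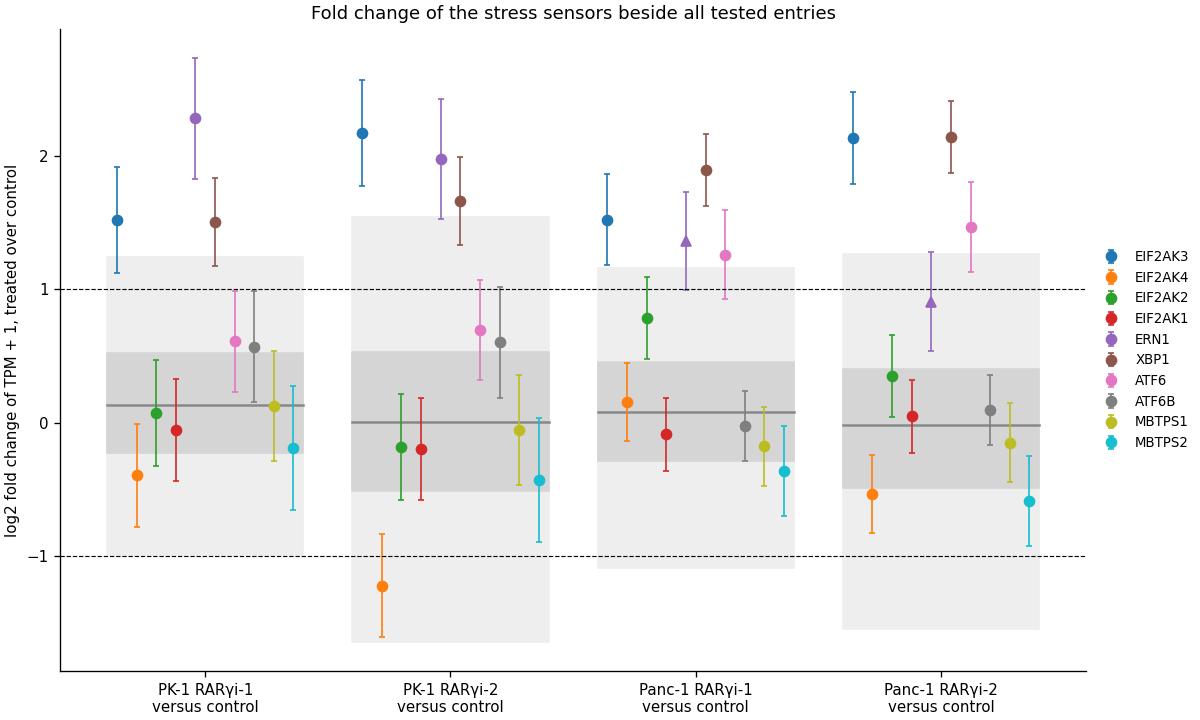
Log2 fold change of TPM + 1 (y axis) of the 10 genes in the 4 comparisons; bars give the local fold change spread, which is not a replicate error, triangles mark lower limits, and dashed lines mark 2-fold. Grey bands hold the 25th to 75th (dark) and 5th to 95th (light) percentiles of all tested entries with their median; EIF2AK3 and XBP1 lie above the light band in all 4 comparisons, where its upper edge is at 1.24, 1.55, 1.16 and 1.27.

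The control libraries of the lines differed in the levels of most of these transcripts. From the highest level down, the PK-1 control had XBP1, EIF2AK1, MBTPS1, EIF2AK4, ATF6B, EIF2AK2, ATF6, MBTPS2, EIF2AK3 and ERN1. Neighbours in this order that lay within the overall spread of 0.41 were EIF2AK1 and MBTPS1, EIF2AK4 and ATF6B, ATF6B and EIF2AK2, and MBTPS2 and EIF2AK3. The Panc-1 control had EIF2AK1, ATF6B, XBP1, MBTPS1, EIF2AK4, MBTPS2, EIF2AK2, ATF6, EIF2AK3 and ERN1. Within its overall spread of 0.32 lay EIF2AK1 and ATF6B, XBP1 and MBTPS1, MBTPS2 and EIF2AK2, and EIF2AK2 and ATF6. The spread does not measure the error between different genes, so it is only a rough guide to these orders. Against PK-1, the Panc-1 control held more ATF6B (1.56 on the log2 scale), MBTPS2 (0.66) and EIF2AK1 (0.61), and less XBP1 (-1.22), EIF2AK2 (-1.21), EIF2AK4 (-1.08), EIF2AK3 (-0.86) and ATF6 (-0.64). MBTPS1 differed by -0.29, less than the overall spread of either line. ERN1, at 2.46 TPM in the PK-1 control, was at the floor in the Panc-1 control. The ER sensor ERN1 was thus the scarcest transcript of the set in both controls. EIF2AK3 came next above it, although in PK-1 it was not set apart from MBTPS2.

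The genes that act after PERK had median changes above those of its own transcript. Of 12 genes of the ATF4 and CHOP output, 12, 12, 11 and 12 rose past 2-fold in the same order of comparisons, with median log2 fold changes of 2.44, 2.90, 2.71 and 2.97 beside the medians of all entries given above. The exception was ATF4 itself in Panc-1 with RARγi-1, at 0.99. DDIT3, which encodes the transcription factor CHOP, went from 48.9 to 377 and 904 TPM in PK-1 cells and from 80.8 to 575 and 1070 TPM in Panc-1. ATF3, a stress-induced transcription factor, went from 8.03 to 48.3 and 157 TPM and from 5.38 to 129 and 469 TPM. NUPR1, a stress-induced nuclear protein, was at the floor in the PK-1 control and at 14.3 and 16.2 TPM after treatment, and went from 21.1 to 480 and 588 TPM in Panc-1. ATF4 lies downstream of all 4 eIF2α kinases, so this list does not separate them.

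Of the 8 subunits of eIF2, the factor that the kinases act on, and of its exchange factor eIF2B, 0 rose past 2-fold in any comparison. EIF2B1 alone fell, at -1.03 in PK-1 with RARγi-2. For so short a list these counts are near the shares of all entries, 7.3% to 11.9% rising and 12.3% falling in that comparison. EIF2S1, named here because it encodes eIF2α itself, had log2 fold changes of -0.36, -0.73, -0.06 and -0.06. The medians were -0.19, -0.37, -0.03 and 0.05. EIF2S2, which encodes the β subunit of eIF2, had log2 fold changes of 0.64, 0.58, 0.69 and 0.82, and EIF2B2 of 0.19, 0.35, 0.42 and 0.60. Among 5 subunits of the phosphatases that reverse the phosphorylation, 1 rose in each comparison, the stress-inducible PPP1R15A (GADD34), at 2.19, 3.24, 3.15 and 3.68. Its constitutive counterpart PPP1R15B had values of 0.55, 0.25, 0.26 and 0.48. The catalytic subunit PPP1CC was at -0.995, -1.33, -0.95 and -1.22, past 2-fold with RARγi-2 in both lines. The phosphatase list had medians of 0.02, 0.18, 0.26 and 0.38.

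Of 8 regulators of the kinases, 1 rose past 2-fold with RARγi-2 in each line, a share near the 11.9% and 8.34% of all entries, and 0 with RARγi-1. The medians of 0.17, 0.15, 0.10 and 0.12 were close to those of all entries. The gene that rose was DNAJC3 (p58IPK), an ER-induced inhibitor of PERK and PKR, at 1.58 in PK-1 cells and 1.76 in Panc-1, with 0.89 and 0.95 for RARγi-1. IMPACT, an inhibitor of GCN2 activation, had log2 fold changes of 0.58, 0.24, 0.78 and 0.65. TARBP2, which binds and restrains PKR, had -0.65, -0.33, -0.50 and -0.46.

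**Figure D4:**
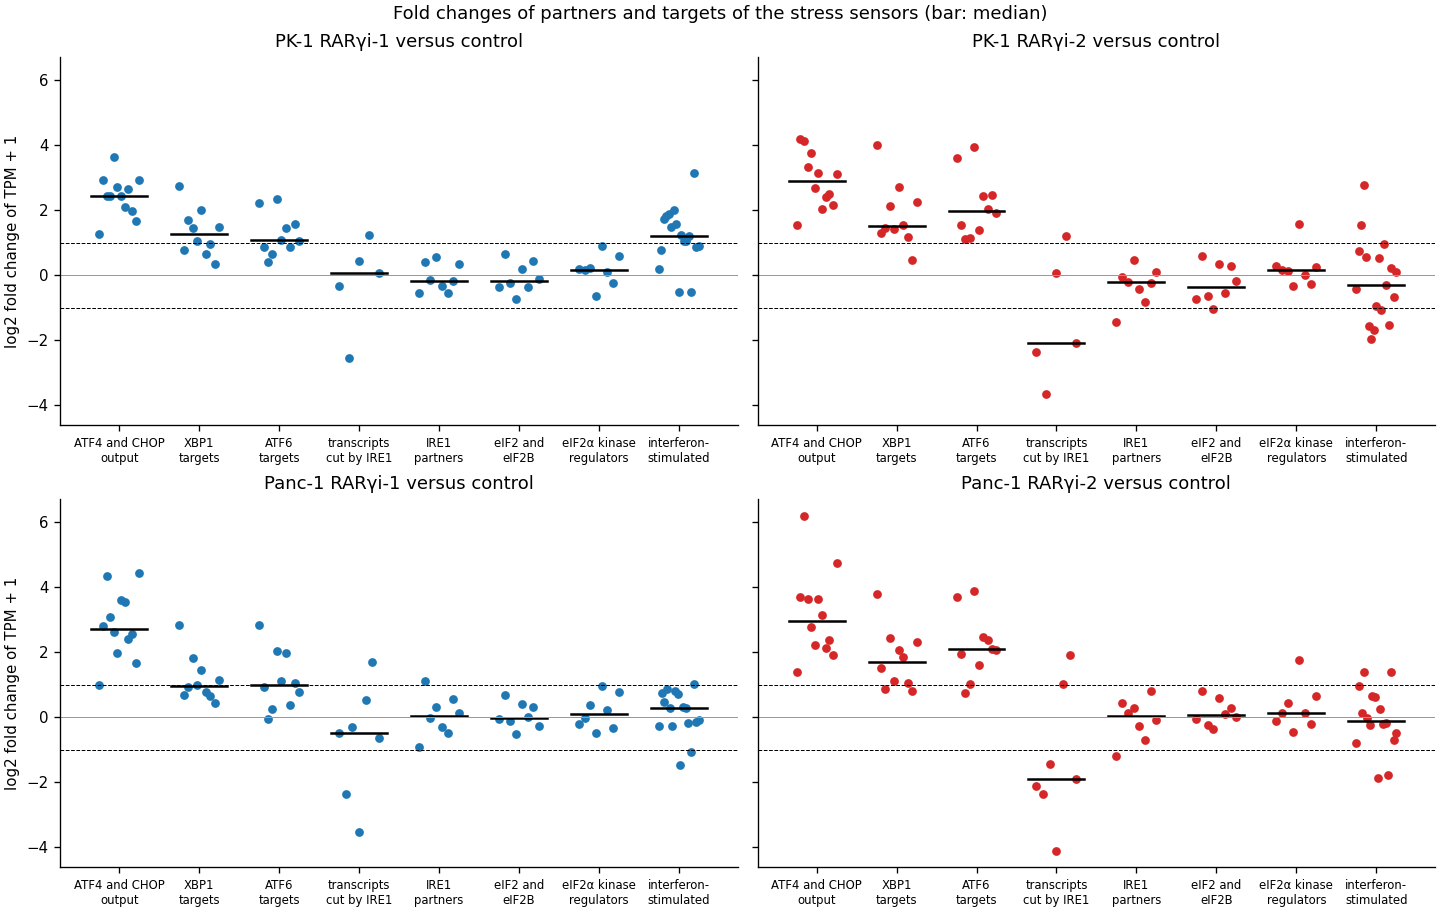
Log2 fold change of TPM + 1 (y axis) of the genes of 8 lists around the sensors, 1 panel per comparison and 1 point per gene above the floor in the line, with the list median as a black bar and 2-fold as dashed lines. The ATF4 and CHOP output lies highest in all panels (medians 2.44 to 2.97), the subunits of eIF2 and eIF2B lie around 0, and the interferon-stimulated genes lie mostly above 0 in PK-1 with RARγi-1 (median 1.21) and on both sides of it with RARγi-2 (median -0.32).

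Targets of XBP1 and ATF6 rose in part. Of 10 XBP1 targets, 6 rose past 2-fold in PK-1 with RARγi-1 and 9 with RARγi-2, 4 and 8 did so in Panc-1, and 4 genes rose in all 4 comparisons, with medians of 1.26, 1.51, 0.96 and 1.69. DNAJB9 (ERdj4), an ER co-chaperone, was at 10.6, 77.3 and 185 TPM in PK-1 cells and 9.88, 77.6 and 151 TPM in Panc-1. SEC24D, a coat subunit of vesicles that leave the ER, was at 26.1, 107 and 177 TPM and at 16.3, 46.5 and 71.3 TPM. SERP1, which protects unfolded proteins during translocation, had log2 fold changes of 1.45, 2.13, 1.84 and 2.44.

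Of 10 ATF6 targets, 6 and 10 rose in PK-1 cells and 5 and 9 in Panc-1, with 5 in all 4 comparisons and medians of 1.07, 1.97, 0.98 and 2.09. HSPA5 (BiP), the main ER chaperone, which also holds the sensors inactive, went from 532 to 2487 and 6542 TPM in PK-1 cells and from 434 to 3123 and 5661 TPM in Panc-1. HERPUD1, which acts in ER-associated degradation, was at 64.4, 331 and 1007 TPM and at 31.1, 131 and 477 TPM. HYOU1, an ER chaperone of the HSP110 family, had log2 fold changes of 1.44, 2.44, 1.97 and 2.46. XBP1 and ATF6 share many targets, so the lists do not separate the arms. The 3 NF-Y subunits, partners of ATF6 at the ERSE, had 0 members past 2-fold, with medians of -0.13, -0.38, 0.00 and -0.05. NFYB ran lowest, at -0.28, -0.89, -0.42 and -0.52, and NFYA and NFYC ranged from -0.38 to 0.21.

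Around IRE1α, the paralog ERN2, known from mucus-secreting epithelia, was at the floor in all 6 libraries. Of the 8 other IRE1α partners and subunits of the tRNA ligase complex that rejoins XBP1 mRNA, 1 rose past 2-fold in Panc-1 with RARγi-1 and 1 fell with RARγi-2 in each line, a share near the 12.3% and 11% of all entries, with medians of -0.17, -0.21, 0.05 and 0.03. The gene that fell was TRAF2, the adaptor through which IRE1α signals to JNK, at 67.6, 45.8 and 24.4 TPM in PK-1 cells and 74.9, 39.2 and 31.9 TPM in Panc-1. Its log2 fold changes were -0.55, -1.43, -0.92 and -1.21, lower than the control in all 4 treated libraries. MAP3K5 (ASK1), the kinase that TRAF2 recruits, was the gene that rose, at 1.11. FAM98B of the ligase complex was at -0.55, -0.83, -0.50 and -0.71.

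Transcripts that IRE1α is known to cut and degrade went in both directions. In PK-1, 5 of the 8 listed were above the floor, of which 1 fell and 1 rose past 2-fold with RARγi-1 and 3 fell and 1 rose with RARγi-2. In Panc-1, 7 were above the floor, with 2 falling and 1 rising with RARγi-1 and 5 falling and 2 rising with RARγi-2. Of all entries, 4.85% and 12.3% fell in PK-1 with RARγi-1 and RARγi-2, and 5.96% and 11% in Panc-1. The shares that rose were 9.05% and 11.9% in PK-1 cells and 7.3% and 8.34% in Panc-1, so a single gene of so short a list says little. SCARA3 alone fell in all 4, from 27.2 to 3.78 and 1.21 TPM in PK-1 cells and from 9.27 TPM to the floor in Panc-1. SPARC, read in Panc-1 only, went from 160 to 12.9 and 8.35 TPM. BLOC1S1, the best known of these substrates, was at 89.9, 71.8 and 16.6 TPM in PK-1 cells and at 101, 72.3 and 22.3 TPM in Panc-1. Beside it the read-through entry BLOC1S1-RDH5, which shares its sequence, was at 1.95, 1.11 and 9.82 TPM and at 1.11, 1.08 and 10.6 TPM, so the counting may have divided reads between the pair and the BLOC1S1 value is uncertain. The list medians were 0.08, -2.10, -0.48 and -1.92. The genes that rose, named here after their values were seen, were PER1 and the death receptor gene TNFRSF10B, the latter read in Panc-1 only.

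Of the other substrates and partners of S1P and S2P, 0 of 10 rose past 2-fold in PK-1 with RARγi-1 and 2 of 10 with RARγi-2, and 4 and 5 of 11 rose in Panc-1. Of all entries, 9.05% and 11.9% rose in PK-1, near these counts, and 7.3% and 8.34% in Panc-1. The list medians were 0.37, 0.04, 0.71 and 0.67. In the list 0 fell past 2-fold, beside 4.85%, 12.3%, 5.96% and 11% of all entries. CREB3, an ER-bound transcription factor cut by the same proteases, had log2 fold changes of 0.76, 1.36, 0.94 and 1.76. Its relative CREB3L2 was at 0.70, 0.40, 1.74 and 1.74. INSIG2, which retains the sterol sensor SCAP in the ER, was at 0.94, 1.25, 1.01 and 1.43.

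EIF2AK2 is itself an interferon-stimulated gene and was compared with 19 others, 17 of them above the floor in PK-1 cells and 16 in Panc-1. In PK-1 with RARγi-1, 11 rose and 0 fell past 2-fold, and with RARγi-2, 2 rose and 5 fell, with medians of 1.21 and -0.32. In Panc-1, 1 rose and 2 fell with RARγi-1 and 2 rose and 2 fell with RARγi-2, with medians of 0.28 and -0.11. Of all entries, 9.05% rose and 4.85% fell in PK-1 with RARγi-1, and 11.9% and 12.3% with RARγi-2. In Panc-1 these shares were 7.3% and 5.96%, and 8.34% and 11%, so the Panc-1 counts are too small to set the list apart. In PK-1, 16 of the 17 genes were lower in the RARγi-2 than in the RARγi-1 library. Entries in general leaned the same way, with a median log2 difference of -0.16 over the 11268 entries of at least 5 TPM. The share of all entries that were lower is not given here. IFIT2, an interferon-induced inhibitor of translation, was at 26.2 TPM in the control, 108 TPM under RARγi-1 and 5.93 TPM with RARγi-2. With IFIT1, IFIT3 and IFI44, named after their values were seen, it belonged to 4 genes that rose past 2-fold with RARγi-1 and fell past 2-fold with RARγi-2. The share of all entries with that pattern is not given here either. OASL went from 12.9 to 122 and 15.2 TPM, and IRF7, an interferon regulatory factor, from 5.20 to 21.1 and 41.1 TPM. EIF2AK2, with the ISRE at its start printed above, stood in the same PK-1 libraries at 36, 37.9 and 31.6 TPM, within the spread.

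For EIF2AK3, XBP1 and ERN1, the 3 genes past 2-fold in at least 3 comparisons, the entries with the most similar set of 4 log2 fold changes were sought among 10629 entries of at least 10 TPM in some library, by Euclidean distance. Nearest to EIF2AK3 were C14orf28 (distance 0.13), JMY (0.16) and GMPPA (0.20). Nearest to XBP1 were TXNRD1 (0.12), which encodes thioredoxin reductase, ETV5 (0.21) and PDCD4 (0.28). Nearest to ERN1 were SH3D21 (0.30), CCNG2 (0.33) and CBSL (0.36), the last a near-identical copy of CBS whose reads cannot be assigned with certainty. With 4 values that share 2 controls, a small distance describes a similar pattern in these libraries and no more.

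Between 74.6% and 75.6% of entries lay at the floor in each library. The cell lines were checked against 6 epithelial markers, of which 6 were above the floor in PK-1 cells and 5 in Panc-1, where the cadherin gene CDH1 was at the floor. Of 9 markers of fibroblasts, leukocytes and endothelium, 8 were at the floor in all 6 libraries. The remaining one, CD68, which many cultured cells also express, was at 19.8 TPM in the PK-1 control and at 95 and 62.6 TPM after treatment, both past 2-fold, and at 244, 276 and 238 TPM in Panc-1. The summed TPM of the epithelial markers was 22498, 13507 and 14127 in the control, RARγi-1 and RARγi-2 libraries of PK-1 and 8418, 1783 and 1484 in those of Panc-1, and so was lower in every treated library. This sum is carried by keratins, and CDH1 went the other way in PK-1, at 0.66 and 1.17. EPCAM was mixed, at 0.51 in Panc-1 with RARγi-1 but -0.50 there with RARγi-2, and at -0.07 and -0.22 in PK-1. The part of CD68 and of the epithelial markers in the results above was not tested. A median-ratio rescaling of the libraries moved the median of all entries by -0.12, 0.03, -0.09 and 0.01 in the 4 comparisons and kept all counts of the 10 genes.

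Exons of some of these genes overlap those of others in GENCODE 29, and whether the counting used strand is not given in the sources used here. EIF2AK1 shares 532 of its 5550 exon bases with AIMP2 on the opposite strand, an entry of up to 127 TPM. MBTPS2 shares 1093 of 8927 with YY2 on its own strand, an entry of up to 2.61 TPM. EIF2AK3 shares 781 of 5434 with a noncoding gene on the opposite strand that had no value here, so reads of such pairs may have been counted for either gene.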

How the data were processed

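RNA-seq of 6 libraries, 1 per condition, was analysed, from TRIzol-extracted RNA and a stranded mRNA kit. For each library the authors deposited log2 values of TPM, in which no value lies below 0, so that 1 TPM is the floor. The submitters' processing notes name hg38; the aligner, the counter and the annotation are not given in the sources used here. TPM keeps no sequencing depth, so no counting interval can be given.

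Samples were grouped by title. From the linear TPM, log2 ratios of TPM + 1 were formed between each treated library and the control of its line. Entries above the floor in at least 1 library of a line formed the background. Counts past 2-fold were made without a test or p-value. The fold change spread is the median absolute deviation, multiplied by 1.4826, of the RARγi-2 minus RARγi-1 difference; overall it used 11268 (PK-1) and 11056 (Panc-1) entries of at least 5 TPM. Other pseudocounts, thresholds, a rescaling and a minimum level were tried.

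The genes and all lists were chosen with earlier results of these data known. The genes named are all 10 sensors and partners, from each list the up to 3 genes reaching 10 TPM in some library with the largest mean absolute log2 fold change, and the 3 nearest entries of each sensor past 2-fold in at least 3 comparisons; exceptions are stated. List genes missing under their present symbol were matched by an older one. Gene coordinates and promoter windows come from RefSeq (GRCh38.p14), and exons and transcripts from GENCODE 29. The fold change formula and the 2-fold call alone were tried on simulated data, with large planted changes and noise smaller than the spread. This checks the code and gives no error rate for these data. Python 3.11.15, numpy 2.4.6, pandas 2.3.3 and matplotlib 3.10.9 were used.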

Additional observations from a re-analysis of the deposited data

How the results depend on the processing

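Each condition has 1 library, so differences between treatment and culture cannot be told apart, and levels under 1 TPM were not recorded. At a threshold of 1.5-fold, 5 genes rose in PK-1 with RARγi-2 and 1 fell in Panc-1 with RARγi-2, and 4 rose in all 4 comparisons. At 3-fold, 1 gene of each line rose with RARγi-1, 0 rose in all 4 comparisons, and 0 fell in PK-1 with RARγi-2. These shifts follow from the thresholds. The share of all entries past 1.5-fold or 3-fold is not given here, so these counts have no background beside them. Without a pseudocount, or with one of 0.1, 38 of the 40 log2 fold changes of the 10 genes kept their value within the spread, and the 2 that moved were those of ERN1 in Panc-1, to 2.05 and 1.46 without one and to 1.95 and 1.38 with 0.1. Median-ratio rescaling moved values by 0.13 or less and changed the sign of 2, both near 0: EIF2AK2 and MBTPS1 in PK-1 with RARγi-1. With at least 5 TPM required in a library of the line, 38 values remained, since ERN1 in Panc-1 dropped out. Each comparison is made within a line, and no model over both lines with the line as a block was fitted.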
